A study of Homo sapiens with 4 samples.

Results

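A set of 49 genes of the actin cytoskeleton and its contractile machinery was followed in 2 human lung cancer cell lines. They were listed by symbol: a probe set counted where the platform annotation named that gene alone, and for each gene the probe set brightest on average over the 4 arrays was used. A probe set was found for 46 of the 49 genes, out of 18239 genes with a probe set in all. TPM3, FLNA and FLNC were not analysed here. PC9 is an established line of human lung adenocarcinoma that carries an activating mutation of EGFR. MTAC-P is labelled as a resistant line obtained by mild exposure to a TKI, a tyrosine kinase inhibitor. Both were grown in DMEM with serum, and total RNA of 2 samples per line was measured, 1 array each. The inhibitor, its dose, the parent line and whether drug was present at harvest are not given in the sources used here.

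Actin monomers assemble into filaments that give a cell its shape, its protrusions and its grip on the substrate. Nucleators start filaments, cofilin and gelsolin proteins cut them, crosslinkers and tropomyosins stabilise them, and non-muscle myosin pulls on them. Focal adhesion proteins and the ezrin, radixin and moesin (ERM) linkers tie filaments to the membrane. In carcinoma cells these genes are studied for their part in migration and in the shift from epithelial to mesenchymal shape.

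Values are log2 expression values, so a difference of 1 is a 2-fold difference. The medians of all probe sets lay between 4.85 and 4.88 on the 4 arrays, and duplicates correlated with a Pearson's r of 0.992 in PC9 and 0.990 in MTAC-P over the 14970 tested genes, which are not independent replicates. Pairs of arrays from different lines correlated almost as closely, with a Pearson's r of 0.980 to 0.990. A tested gene had a mean of at least 4.14, the 25th percentile of all probe sets, and all 46 genes reached this level, which was not shown to be a detection limit. The epithelial markers EPCAM, CDH1, KRT7, KRT8, KRT18 and KRT19 had line means of 10.35 or more, whereas the lung lineage markers NKX2-1, NAPSA, SFTPB and SFTPC had line means of 5.10 or less. Of the smooth muscle, fibroblast, endothelial and leukocyte markers, none had a line mean above 5.49. The smallest 2-sided p of an exact permutation test with 2 arrays per line is 0.333, and nothing says that the duplicates came from separate cultures, so p-values measure only the spread between these samples. Array signal cannot tell fewer cells with a transcript from less RNA per cell.

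The 46 genes did not share a single direction, though more of them had a higher mean in MTAC-P than a lower one. Among the genes at least 1.5-fold apart, MSN, which encodes moesin, RHOC, CNN2 and MYH10 had higher means in MTAC-P. RDX, which encodes radixin, TAGLN, CALD1, RHOB, WASL and ENAH had lower means. None of these differences passed limma's test adjusted over all genes. The number past the adjusted threshold was 0 of 46, against 0.0200% of all tested genes, and the lowest adjusted p, that of MSN, was 0.0971. At an unadjusted limma p under 0.05 there were 11 of 46 genes, against 18.9% of all tested genes, 5 of them higher in MTAC-P (7.76% of all genes) and 6 lower (11.1%). The median log2 difference was 0.088 over the 46 genes and 0.031 over all tested genes, and 31 of the 46 had the higher mean in MTAC-P, against 53.8% of all genes. The median level of the 46 genes had a pooled SD of 0.16 between duplicates, larger than the difference of 0.088. Non-overlapping arrays were found for 26 of 46 genes, against 53.2% of all genes, a share close to the background, with 18 higher in MTAC-P (28.3% of all genes) and 8 lower (24.9%). Means at least 1.5-fold apart were found for 10 of 46 genes, against 11.9% of all genes, and in each of the 10 both arrays of 1 line lay above both of the other. Of these, 4 were higher in MTAC-P and 6 lower, where 3.61% and 7.79% of all genes were both as far apart and free of overlap. The count of 10 was 5 without MTAC-P replicate 2. It was 2, MSN and RHOC, when the probe sets of each gene were averaged.

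**Figure D1:**
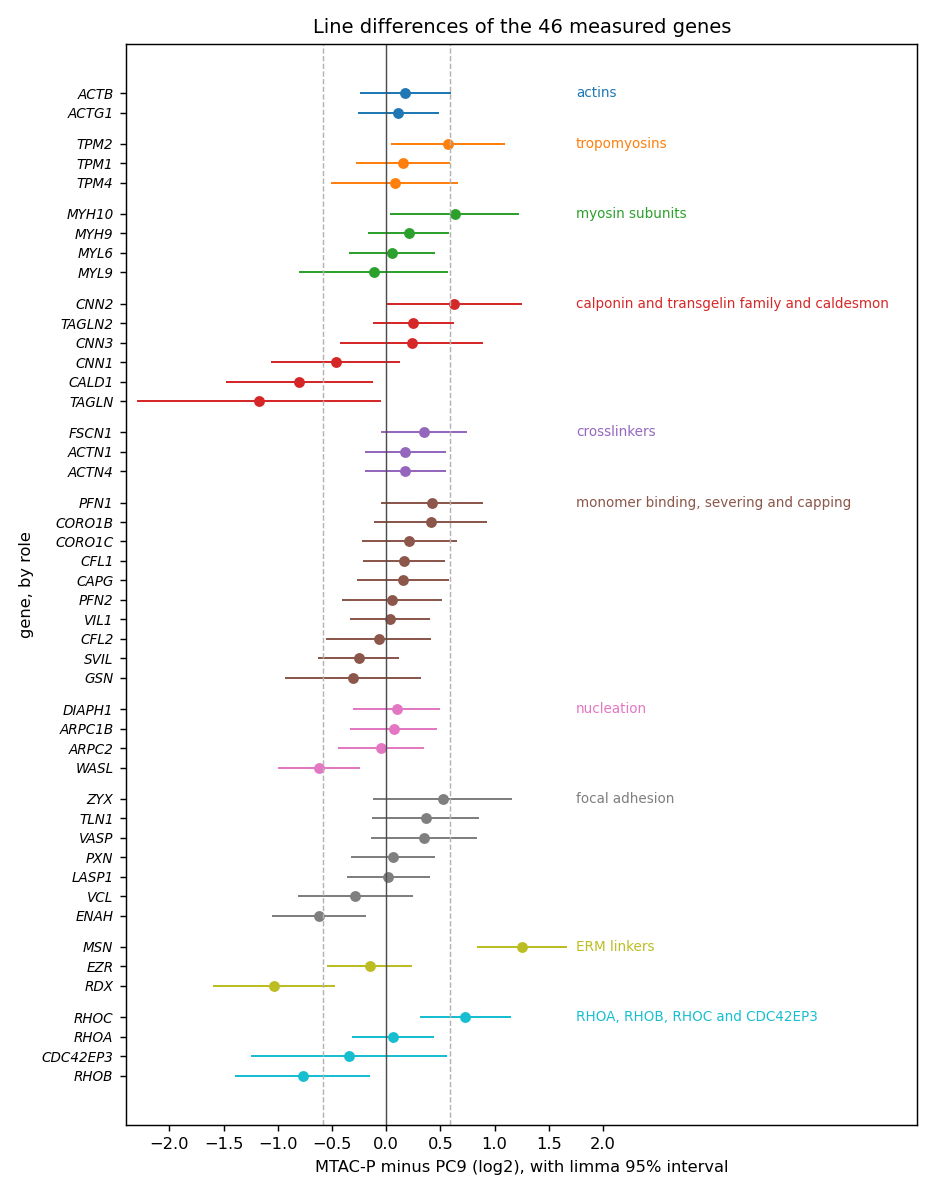
Log2 difference, MTAC-P minus PC9, of each of the 46 genes (points) with limma's 95% interval (bars), grouped by role; dashed lines mark a 1.5-fold difference. MSN lies farthest to the right at 1.25, and TAGLN and RDX farthest to the left at -1.17 and -1.04.

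The ERM proteins link actin filaments to membrane proteins at the cell cortex. MSN had values of 10.29 and 10.39 in PC9 and 11.47 and 11.71 in MTAC-P. Both MTAC-P arrays lay above both PC9 arrays, a 2.38-fold difference in means (log2 difference 1.25, 95% interval 0.85 to 1.65, limma adjusted p = 0.0971). RDX had values of 10.54 and 10.64 in PC9 and 9.86 and 9.25 in MTAC-P. Both MTAC-P arrays were the lower ones, with a 2.05-fold difference (log2 difference -1.04, 95% interval -1.59 to -0.48, limma adjusted p = 0.120). EZR, which encodes ezrin, the ERM protein of epithelial microvilli, had values of 11.44 and 11.29 in PC9 and 11.16 and 11.26 in MTAC-P, a log2 difference of -0.15 with an interval from -0.54 to 0.23. Within arrays, the log2 ratio of the MSN signal to the RDX signal was -0.25 on both PC9 arrays. In MTAC-P it was 1.61 and 2.46, which is 2.29 higher on average. This average only combines the differences of MSN and RDX given above and adds no separate result. The ratio says nothing about which transcript is the more abundant. All 3 probe sets of MSN were higher in MTAC-P, by 1.25 to 1.70, and all 7 probe sets of RDX above the 4.14 level were lower, with differences of -1.04 to -0.15. Averaged over its 8 probe sets, RDX differed by -0.43. The 5 probe sets of EZR ran from -0.17 to 0.23 and averaged 0.0032.

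The 250 bases before the RefSeq start of MSN and RDX are printed because these neighbours in function differed in opposite directions. Over the 300 bases from 250 before to 50 after the start, 57.0% of the MSN window and 80.3% of the RDX window were G or C. The window of EZR, which differed by -0.15, was 80.0% G or C. A link between base content and direction was not tested. Neither window holds the CArG box, the site of serum response factor (SRF). The MSN sequence lies at chrX:65588127-65588376 on the plus strand and the RDX sequence at chr11:110296615-110296864 on the minus strand (GRCh38.p14). Both are written along the gene's strand, and nothing in them is capitalised because no CArG box was found.
MSN: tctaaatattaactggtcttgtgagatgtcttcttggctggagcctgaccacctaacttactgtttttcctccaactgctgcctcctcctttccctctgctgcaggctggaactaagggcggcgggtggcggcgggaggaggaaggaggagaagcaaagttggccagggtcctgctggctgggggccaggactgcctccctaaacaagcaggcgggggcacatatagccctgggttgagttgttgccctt
RDX: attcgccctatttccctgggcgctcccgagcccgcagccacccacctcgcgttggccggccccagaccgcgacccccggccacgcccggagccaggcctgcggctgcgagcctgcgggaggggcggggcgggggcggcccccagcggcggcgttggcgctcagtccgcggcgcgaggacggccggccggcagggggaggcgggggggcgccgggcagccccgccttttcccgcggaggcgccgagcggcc

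RHOC had values of 11.57 and 11.58 in PC9 and 12.16 and 12.44 in MTAC-P. The lines did not overlap, and the difference was 1.66-fold (log2 difference 0.73, 95% interval 0.32 to 1.14, limma adjusted p = 0.125). Its 3 probe sets gave 0.73 to 0.84. RHOB had values of 7.03 and 6.47 in PC9 and 6.22 and 5.74 in MTAC-P. Its MTAC-P arrays were the lower ones, by 1.70-fold (log2 difference -0.77, 95% interval -1.38 to -0.16, limma adjusted p = 0.195). RHOB differed by -0.49 without PC9 replicate 1, less than 1.5-fold, and by -1.05 without PC9 replicate 2. Of the other 4 probe sets of RHOB, however, 3 had the opposite sign, up to 0.43, and all 5 averaged -0.084. RHOA had values of 13.44 and 13.35 in PC9 and 13.45 and 13.46 in MTAC-P, and its difference of 0.062 had an interval from -0.30 to 0.43. CDC42EP3, an effector of the GTPase CDC42, had values of 10.88 and 9.82 in PC9 and 10.31 and 9.71 in MTAC-P. Its arrays overlapped, and the difference of -0.34 was 0.18 without PC9 replicate 1, -0.87 without PC9 replicate 2, -0.64 when MTAC-P replicate 1 was dropped and -0.042 without MTAC-P replicate 2.

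Calponins, transgelins and caldesmon bind along filaments and are best known from smooth muscle. The 6 genes of this group did not move together: CNN2, CNN3 and TAGLN2 had higher means in MTAC-P, and CNN1, CALD1 and TAGLN lower ones. CNN2 had values of 11.77 and 11.07 in PC9 and 11.95 and 12.14 in MTAC-P. The lines were separated by a gap smaller than that between the PC9 arrays, and the log2 difference of 0.63 (95% interval 0.015 to 1.24, limma adjusted p = 0.257) was 0.27 without PC9 replicate 2 and 0.98 when replicate 1 was dropped instead. All 9 probe sets of CNN2 were higher in MTAC-P, by 0.19 to 0.96. TAGLN, the smooth muscle protein SM22, had values of 8.10 and 8.12 in PC9 and 7.73 and 6.15 in MTAC-P. The PC9 arrays were close together and the MTAC-P arrays 1.57 apart, so the 2.26-fold difference (log2 difference -1.17, 95% interval -2.29 to -0.054, limma adjusted p = 0.248) was -0.39 without MTAC-P replicate 2 and -1.96 when replicate 1 was dropped instead. Its 6 probe sets were all lower in MTAC-P, with differences of -1.17 to -0.19 that averaged -0.57. CALD1, which encodes caldesmon, had values of 8.41 and 7.86 in PC9 and 7.65 and 7.02 in MTAC-P. Replicate 2 was the lower array in both lines, and the lines did not overlap (log2 difference -0.80, 95% interval -1.47 to -0.14, limma adjusted p = 0.207). CALD1 differed by -0.53 without PC9 replicate 1 and by -0.49 without MTAC-P replicate 2. All 10 probe sets of CALD1 were lower in MTAC-P, by -0.87 to -0.045, with a mean of -0.46. CNN1, the smooth muscle calponin, was dim, with values from 4.92 to 5.87, and its arrays overlapped. CNN3 differed by 0.23, which was -0.091 without PC9 replicate 2 and -0.00040 without MTAC-P replicate 1. TAGLN2 differed by 0.25, with values of 12.67 and 12.73 in PC9 and 12.97 and 12.94 in MTAC-P. The 6 smooth muscle markers ACTA2, MYH11, DES, LMOD1, SYNM and MYOCD were dim, with line means of 4.27 to 5.45. Their log2 values added up to 27.95 to 28.22 on the PC9 arrays and 28.25 to 29.06 on those of MTAC-P. A sum of log2 values of dim genes is not an amount of RNA and is not read here as a line difference.

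**Figure D2:**
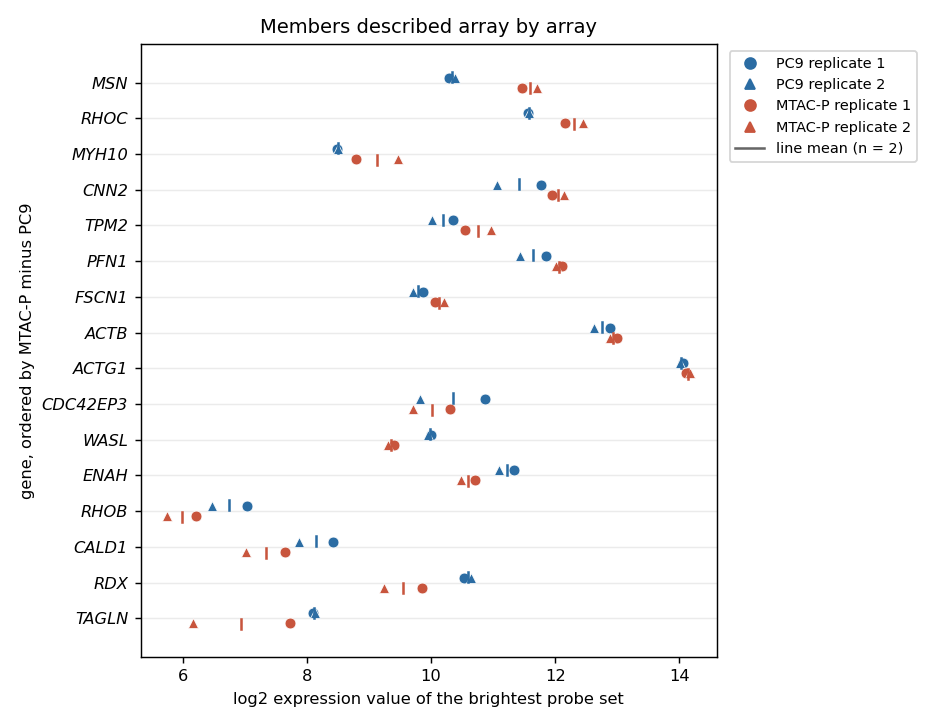
Log2 expression values of 16 genes on each array (PC9 blue, MTAC-P red, circles replicate 1, triangles replicate 2) with the line means as short bars, ordered by line difference. The pairs of MSN and RHOC lie apart between the lines, whereas the MTAC-P pair of TAGLN spans 6.15 to 7.73 and the PC9 pair of CDC42EP3 spans 9.82 to 10.88.

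Non-muscle myosin II is built from heavy chains such as MYH9 and MYH10 and light chains such as MYL6 and MYL9. MYH10 had values of 8.49 and 8.51 in PC9 and 8.78 and 9.47 in MTAC-P. The lines did not overlap, but the log2 difference of 0.63 (95% interval 0.041 to 1.22, limma adjusted p = 0.241) was 0.29 without MTAC-P replicate 2 and 0.97 when replicate 1 was dropped instead. The other probe sets of MYH10, far dimmer, differed by 0.075 and -0.071. MYH9, the heavy chain of myosin IIA, had tight duplicates of 12.02 and 12.01 in PC9 and 12.23 and 12.21 in MTAC-P, a difference of 0.21 with an interval from -0.16 to 0.57. MYL6 differed by 0.054. MYL9, the regulatory light chain, differed by -0.11, with PC9 arrays 0.81 apart, and by 0.29 without PC9 replicate 2.

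Tropomyosins lie along the filament groove and decide which proteins can reach it. TPM2 had values of 10.36 and 10.01 in PC9 and 10.54 and 10.96 in MTAC-P. The lines did not overlap, with a 1.48-fold difference (log2 difference 0.57, 95% interval 0.054 to 1.08, limma adjusted p = 0.232) that was 0.36 without MTAC-P replicate 2. Its second brightest probe set differed by 0.52, and 1 of the 2 dim ones by -0.24. TPM1 differed by 0.15 and TPM4 by 0.078, both with overlapping arrays, and TPM4 differed by -0.25 without PC9 replicate 2. Of the 7 probe sets of TPM1 above the 4.14 level, the 3 brightest differed by 0.093 to 0.18, 3 of the dimmer ones by 0.83, 0.89 and 1.31, and the mean of all 9 by 0.40.

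Beta-actin and gamma-actin, encoded by ACTB and ACTG1, form the filaments of non-muscle cells. ACTB had values of 12.88 and 12.63 in PC9 and 12.99 and 12.88 in MTAC-P. Its PC9 replicate 2 was the lowest array, the lines overlapped, and the difference was 0.18 (95% interval -0.23 to 0.58, limma adjusted p = 0.602), or 0.050 without PC9 replicate 2. ACTG1 had values of 14.06 and 14.01 in PC9 and 14.11 and 14.18 in MTAC-P, a difference of 0.11 (95% interval -0.25 to 0.48, limma adjusted p = 0.721). The array design also carries control probe sets along beta-actin. Their 5' part had values of 12.07 and 11.27 in PC9 and 12.37 and 12.08 in MTAC-P, whereas the 3' part ran from 13.76 to 13.88 on all 4 arrays. The 5' signal of beta-actin was therefore lowest on PC9 replicate 2, and the line difference fell along the transcript from 0.55 at the 5' part to 0.18 in the middle and 0.083 at the 3' part. For GAPDH the 5' part had values of 14.24 and 14.12 in PC9 and 14.25 and 14.27 in MTAC-P. The part of this 5' to 3' pattern in the differences of other genes was not tested.

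**Figure D3:**
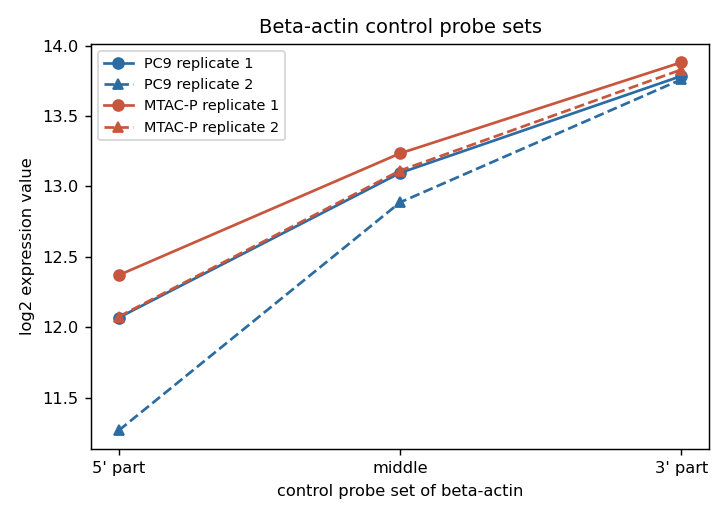
Log2 expression values of the 5', middle and 3' control probe sets of beta-actin on each array (PC9 blue, MTAC-P red, circles and solid lines replicate 1, triangles and dashed lines replicate 2). The 4 arrays lie within 13.76 to 13.88 at the 3' part and spread from 11.27 to 12.37 at the 5' part.

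The CArG box was searched in the RefSeq window of 300 bases around the start, since SRF with its MRTF cofactors is a known regulator of actin genes. A window was found for 42 of the 49 genes. None was found for ACTB, TAGLN, MYL9, ARPC1B, FSCN1, PFN2 and VIL1, so these genes were not searched. Among the 39 measured genes with a window, 3 (7.69%) held a CArG box on either strand, against 1.23% of the windows of all tested genes and 1.29% of all windows. These 3 were ACTG1, CNN2 and TPM4, whose line differences were 0.11, 0.63 and 0.078. The window of FLNA, a gene not analysed here, also held a CArG box, and its sequence is not printed. CATTCC, the core of the site of TEAD factors, read on both strands, was present in 5 of the 39 windows (CALD1, MYH10, MYH9, PFN1 and VCL), against 11.3% of the windows of tested genes. A match describes the letters only. The 250 bases before the start are printed for the CArG holders, with the box in capitals, for ACTG1 at chr17:81512800-81513049 on the minus strand, CNN2 at chr19:1026358-1026607 and TPM4 at chr19:16067288-16067537 on the plus strand (GRCh38.p14).
ACTG1: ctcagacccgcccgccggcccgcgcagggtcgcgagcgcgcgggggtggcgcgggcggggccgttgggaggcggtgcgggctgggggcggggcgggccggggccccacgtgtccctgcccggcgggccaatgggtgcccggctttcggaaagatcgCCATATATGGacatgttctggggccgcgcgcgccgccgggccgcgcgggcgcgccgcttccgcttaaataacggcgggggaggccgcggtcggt
CNN2: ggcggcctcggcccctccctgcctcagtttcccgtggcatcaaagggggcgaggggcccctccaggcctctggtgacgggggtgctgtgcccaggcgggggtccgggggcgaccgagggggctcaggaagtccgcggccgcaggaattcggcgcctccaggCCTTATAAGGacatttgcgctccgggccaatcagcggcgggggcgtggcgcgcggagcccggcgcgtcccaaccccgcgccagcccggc
TPM4: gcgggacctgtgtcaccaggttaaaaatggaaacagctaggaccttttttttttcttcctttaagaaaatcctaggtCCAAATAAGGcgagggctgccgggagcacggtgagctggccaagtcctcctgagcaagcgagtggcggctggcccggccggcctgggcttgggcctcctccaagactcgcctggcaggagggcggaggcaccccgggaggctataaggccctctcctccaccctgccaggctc
The box began 94 bases before the start in ACTG1, 89 in CNN2 and 173 in TPM4.

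Crosslinkers hold filaments in bundles and networks. The 3 measured crosslinkers all had higher means in MTAC-P, with no overlap of the lines, as had 28.3% of all tested genes. FSCN1, the bundling protein fascin of filopodia, had values of 9.86 and 9.70 in PC9 and 10.06 and 10.21 in MTAC-P, a 1.27-fold difference (log2 difference 0.35, 95% interval -0.041 to 0.74, limma adjusted p = 0.307). The alpha-actinins ACTN1 and ACTN4 each differed by 0.18. Their probe sets above the 4.14 level were all higher in MTAC-P, 6 for ACTN1 from 0.18 to 0.51 and 5 for ACTN4 from 0.18 to 0.36.

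In this set 10 genes bind monomers, sever filaments or cap and remodel their ends, and 7 of them had the higher mean in MTAC-P. PFN1, which encodes profilin and feeds monomers to growing ends, had values of 11.85 and 11.43 in PC9 and 12.11 and 12.01 in MTAC-P. Its lines did not overlap, and the difference was 0.42 (95% interval -0.043 to 0.88, limma adjusted p = 0.301), or 0.21 without PC9 replicate 2 and 0.63 when replicate 1 was dropped instead. The coronin genes CORO1B and CORO1C differed by 0.41 and 0.21, or by 0.16 (CORO1B) without MTAC-P replicate 2 and 0.068 (CORO1C) without PC9 replicate 2, and the cofilin genes CFL1 and CFL2, whose products sever filaments, by 0.16 and -0.071. PFN2 differed by 0.053 and CAPG, a capping protein of the gelsolin family, by 0.16. The severing protein GSN differed by -0.31, or 0.021 without PC9 replicate 2, and SVIL, which encodes supervillin, by -0.26. VIL1, the villin of intestinal brush borders, lay at 4.12 to 4.19 on all 4 arrays, next to the 4.14 level.

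Of the 4 nucleation genes only WASL was at least 1.5-fold apart. WASL, which encodes N-WASP, an activator of the Arp2/3 complex, had values of 10.00 and 9.95 in PC9 and 9.40 and 9.31 in MTAC-P. Duplicates were close in both lines, and the difference was 1.53-fold (log2 difference -0.62, 95% interval -0.99 to -0.25, limma adjusted p = 0.133). Its dimmer probe sets differed by -0.32 and 0.19, and the mean of all 3 by -0.25. The Arp2/3 subunits ARPC1B and ARPC2 differed by 0.069 and -0.046, and the formin DIAPH1 by 0.098, all with overlapping arrays.

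Among the 7 focal adhesion genes 5 had higher means in MTAC-P. ENAH, which encodes Mena, an elongation factor at filament tips, was the largest difference and a negative one, with values of 11.34 and 11.10 in PC9 and 10.71 and 10.48 in MTAC-P. The lines did not overlap (1.54-fold, log2 difference -0.62, 95% interval -1.05 to -0.20, limma adjusted p = 0.153). The second brightest probe set of ENAH differed by -0.50, and 1 of its 4 probe sets by 0.11. VASP, of the same protein family, differed by 0.35 in the other direction. ZYX, which encodes zyxin, differed by 0.52 and TLN1, which encodes talin, by 0.36, without overlap. ZYX differed by 0.16 without PC9 replicate 2 and by 0.88 without PC9 replicate 1, TLN1 by 0.15 without MTAC-P replicate 2, and VASP by 0.14 without the same array. VCL, which encodes vinculin, differed by -0.29, PXN, the paxillin gene, by 0.060 and LASP1 by 0.019, with overlapping arrays.

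Duplicates of a line differed almost as much as the lines did. The median size of the difference was 0.17 between the PC9 duplicates, 0.22 between the MTAC-P duplicates and 0.24 between the lines over the 46 genes, and 0.17, 0.21 and 0.22 over all tested genes. Line differences rest on means of 2 arrays and duplicate differences on single arrays. The lines differed by more than both pairs of duplicates for 18 of 46 genes, against 38.5% of all genes. In PC9 replicate 1 was the higher array for 34 of 46 genes, against 50.4% of all genes, with a median of 0.12 against 0.0026. In MTAC-P it was the higher array for 23 of 46, against 47.2%, with a median of -0.0043. Replicate 1 was the higher array in both lines for 18 of 46 genes, against 26.8% of all genes. CDC42EP3 (1.05 in PC9 and 0.60 in MTAC-P), CNN3 (0.65 and 0.47), RHOB (0.56 and 0.48), CALD1 (0.55 and 0.63) and VCL (0.42 and 0.36) had the higher value on replicate 1 in both lines. CNN2 (0.71 and -0.19), TPM4 (0.66 and -0.14) and GSN (-0.66 and 0.35) went in opposite directions in the lines. Duplicates were at least 1.5-fold apart for 7 of 46 genes in PC9 (6.36% of all genes) and 5 in MTAC-P (9.38%). Across the 46 genes the replicate 1 minus replicate 2 differences of the lines had a Pearson's r of 0.17 and a Spearman's rank correlation of 0.17, a description over genes that share the same 4 arrays. PC9 replicate 2, the array with the lowest 5' signal of beta-actin, was the lower PC9 array for those 34 genes, and the part of RNA integrity in this was not tested.

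**Figure D4:**
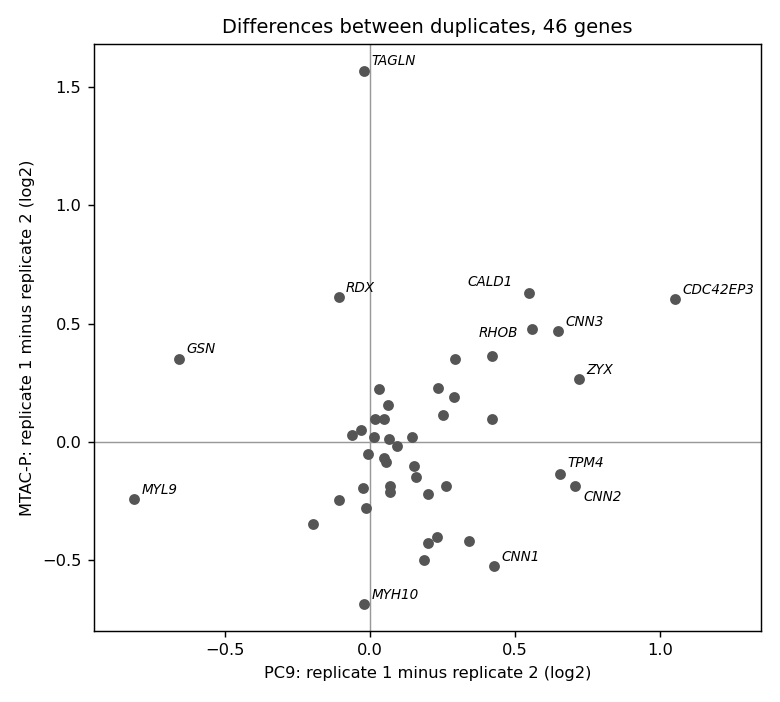
Replicate 1 minus replicate 2 (log2) in PC9 (horizontal) and MTAC-P (vertical) for the 46 genes, with genes labelled where either difference is 0.5 or more in size. TAGLN lies at the top with 1.57 in MTAC-P, and CDC42EP3, CNN3, RHOB, CALD1 and ZYX lie to the upper right.

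The choice of probe set weighed on many of these values. The 46 genes had 198 probe sets, 185 of them above the 4.14 level. Of the 40 genes with more than 1 such probe set, 13 had at least 1 with the opposite sign from the brightest. The second brightest probe set differed more than the brightest in 21 of the 40 genes, and had the opposite sign in 3. CFL1 differed by 0.16 on its brightest probe set and by 0.51 on the next, and CORO1C by 0.21 and 0.58. For 11 genes, among them ACTB, ACTG1, CNN2, RHOC and TPM2, the brightest probe set had the suffix x, which marks probes that may also bind other transcripts, so signal from related genes or processed copies cannot be told apart there. For 20 others, among them MSN, RDX, TAGLN, MYH10, WASL, ENAH and RHOB, it had the suffix s, which marks a probe set shared by several transcripts. That these transcripts come from 1 gene rests on the platform annotation and was not checked.

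**Figure D5:**
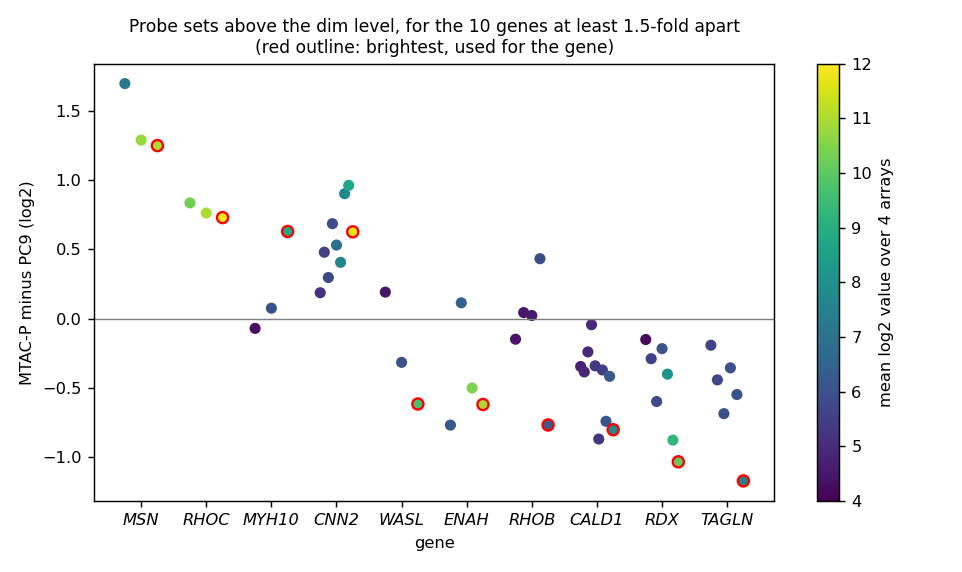
Log2 difference, MTAC-P minus PC9, of every probe set above the 4.14 level for the 10 genes at least 1.5-fold apart, coloured by mean level, with the brightest of each gene outlined in red. MSN, RHOC and CNN2 lie wholly above 0, and CALD1, RDX and TAGLN wholly below, whereas RHOB ranges from -0.77 to 0.43.

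The wider actin machinery was read from 9 further lists holding 170 genes, of which 153 were tested. Past limma's adjusted threshold were 0 higher genes and 1 lower gene, LCP1, an actin bundling protein, against 0.0134% and 0.00668% of all tested genes. The 0.00668% is LCP1 alone, the only lower gene past the threshold among all 14970, so it is no separate background. The lists were chosen with earlier results of these data known, so the count of 1 is a description and not independent support. LCP1 had values of 10.82 and 10.51 in PC9 and 7.15 and 7.35 in MTAC-P, a log2 difference of -3.41 (SE 0.18, limma adjusted p = 0.0121). At an unadjusted limma p under 0.05 there were 15 higher and 25 lower genes of the 153, against 7.76% and 11.1% of all tested genes, and the median difference was -0.040, against 0.031. WASF3, a WAVE protein that activates Arp2/3, had values of 6.42 and 6.06 in PC9 and 4.82 and 5.08 in MTAC-P, a difference of -1.29 (SE 0.19, limma adjusted p = 0.0995). The most positive gene of the Arp2/3 and WAVE list, CYFIP2, differed by 0.66 (SE 0.30), with values of 4.63 and 4.68 in PC9 and 5.77 and 4.86 in MTAC-P, so that MTAC-P replicate 2 lay close to PC9. Among ERM partners the tumour suppressor NF2, which encodes the ERM relative merlin, differed by 0.68 and the hyaluronan receptor CD44 by -0.23. PPP1R12A, the targeting subunit of myosin phosphatase, differed by -0.94, and MYO1C, the most positive of its list, by 0.15. Among genes of filament ends and turnover, EPS8 differed by -0.97 and CORO1A by 0.71, and among formins and Spire genes SPIRE1 differed by -0.61 and FHOD1 by 0.59. In the SRF and muscle list the cofactor MRTFB differed by -0.83 and smoothelin, encoded by SMTN, by 0.75. LPP, a zyxin relative, differed by -0.87 and the adaptor CRKL by 0.76, and PDLIM4 was the most positive crosslinker or scaffold gene at 0.85.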

How the data were processed

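Total RNA was labelled with an Agilent one-colour kit and Cy3, per the labels' protocols, and Agilent Feature Extraction 10.7 is named, per the submitters' processing notes. For each array the authors deposited a log2 expression value of every probe set. That the scale is log2 was read from the range of values, and background correction, normalization and summarization are not given in the sources used here. Probe set names are of Affymetrix type, and how the named kit relates to them is not settled. Of 49386 probe sets, 93 are controls, 45253 have 1 gene symbol, 1327 several and 2713 none, and only those with 1 were used for genes.

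Testing used lmFit and eBayes of limma 3.58.1 with a constant prior variance (R 4.3.3, 2-sided) over 14970 genes, with Benjamini-Hochberg adjustment over all of them and a threshold of 0.05. The step was tested on simulated data. Figures were drawn with matplotlib 3.10.9. The members and lists were chosen with earlier results of these data known. Array values are given for genes at least 1.5-fold apart without overlap, the largest difference of each role group, genes with duplicates 2-fold or more apart and both actins. In the other lists the extremes are named, apart from 1 list that is not reported here by itself. Genes named in the paragraphs on duplicates and probe sets were chosen after their values were seen. Promoter windows are RefSeq's, GRCh38.p14. The alternatives tried were the replicate number as a block, 3 scalings, other dim filters, the mean of all probe sets, other variance priors, a pseudocount and leaving out each array.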

Additional observations from a re-analysis of the deposited data

How the results depend on the processing

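The direction of all 46 differences was the same under median or 75th percentile centring and quantile normalization. With the replicate number as a block, which the labels do not explain, 2079 of all genes and 11 of the 46 passed the threshold: CALD1, CNN2, ENAH, MSN, MYH10, RDX, RHOB, RHOC, TAGLN, TPM2 and WASL. In that fit 1 residual degree of freedom per gene remained, with a prior of 30.0 in place of 4.38. The correlation of the deviations of same-numbered arrays was 0.28 over 14970 genes, and with 2 pairs the numbers cannot be taken to pair the samples. With a variance trend 77 genes passed, MSN (adjusted p = 0.0143) and RHOC (adjusted p = 0.0463) among the 46, so 2 members. Over all genes, against 3 in the comparison as reported, 1 passed with the 50th percentile filter, 1 with the pseudocount of 16, 0 with the mean of all probe sets and 0 in the unmoderated test. At an unadjusted p under 0.05 the last 2 gave 2667 and 1655 genes. Leaving out 1 array gave 0 to 68 genes, with 68 without PC9 replicate 1 and 0 without either MTAC-P array, and 0 members past the threshold each time. The members at least 1.5-fold apart numbered 2 with the mean of all probe sets and 5 to 13 when 1 array was left out. In that mean EZR differed by 0.0032, against -0.15. Of the 46 differences, 33 moved by over 1.5 times or changed sign without 1 of the arrays, 13 by sign. The ranges of those that turned were -0.87 to 0.18 for CDC42EP3, -0.037 to 0.18 for ARPC1B, -0.15 to 0.052 for ARPC2, -0.25 to 0.10 for CFL2, -0.091 to 0.56 for CNN3, -0.015 to 0.21 for DIAPH1, -0.63 to 0.021 for GSN, -0.053 to 0.092 for LASP1, -0.040 to 0.15 for MYL6, -0.52 to 0.29 for MYL9, -0.12 to 0.23 for PFN2, -0.017 to 0.14 for PXN and -0.25 to 0.41 for TPM4. With the mean of all probe sets 25 moved by over 1.5 times or turned sign. The number of arrays limits the precision.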
